A study of Mus musculus with 20 samples.

Results

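The genes described here are 173 genes of embryonic stem cells (ESC) whose transcripts were low in germline stem cells (GSC) and remained below the ESC level in germline pluripotent stem cells (gPS), the pluripotent cells that arise from GSC in culture. They were chosen from 18193 measured genes by 3 conditions on group means of log2 intensity: an ESC mean of at least 7, an ESC mean at least 1.5 above the GSC mean, and an ESC mean at least 1 above the gPS mean. A log2 difference of 1 is a difference of 2-fold. The first 2 conditions left 906 genes, of which the third kept 173 (19%), and the other 733 are called the restored genes. The values of gPS cells, GSC and ESC therefore chose the genes, and are given for them as a description with no test. Calls between gPS cells and ESC are given only for genes of related lists that are not among the 173. Just inside the last condition lay Zmynd11 (gPS minus ESC -1.03), Rcbtb2 (-1.03) and Frrs1 (-1.01), and just outside it lay Gpr19 (-1.0), Slc25a16 (-1.0) and Rex2 (-0.99).

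Mouse pluripotent stem cells are held in self-renewal by a network of transcription factors around Oct4, Sox2 and Nanog, with leukemia inhibitory factor (LIF), bone morphogenetic protein (BMP) and fibroblast growth factor signals acting on it. Germline stem cells, which found spermatogenesis, express part of that network already, and other genes of the pluripotent state are off in them. Imprinted genes, which are read from the copy of 1 parent, carry marks that germ cells erase and set anew.

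Levels came from 20 Affymetrix arrays of mouse cells. The gPS cells (5 arrays) were grown from GSC of the OG2 strain (B6;CBA-Tg[Pou5f1-EGFP]2Mnn/J), which carry green fluorescent protein under the Oct4 promoter. About 1000 GSC per well stood on fibroblast feeders in GSC medium with no passage, round bright colonies were seen after 3 to 4 weeks, and these were expanded under ESC conditions. The ESC_like cells (3 arrays) came from testes of mice at postnatal day 0 to 2, were provided by another laboratory, and grew on feeders with LIF. The GSC (3 arrays) came from testes of OG2 mice and grew on feeders with GDNF, LIF, bFGF and EGF. The NSC (3 arrays) were neural stem cells derived from Olig2-GFP ESC, and the MEF (3 arrays) were fibroblasts of C3H embryos at E12.5. The ESC (3 arrays) were the RW4 line on feeders with LIF. The gPS cells and GSC share the OG2 strain and each other group had its own strain or line, so outside gPS cells against GSC a difference between cell types and a difference between strains cannot be told apart. The labels name no separate cultures, so a p-value reflects no more than the spread between the arrays of a group.

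The marker genes fitted the labels: 6 pluripotency markers averaged 11.68 to 12.04 in the gPS arrays, 11.65 to 11.79 in the ESC_like arrays and 11.90 to 11.93 in the ESC arrays. All log2 values ran from 2.04 to 14.71 with a median of 4.98, and levels near or under that median may be background. Fibroblast markers, which feeder cells carry, differed between the groups. The mean of 8 of them was 6.84, 8.0, 6.50, 6.84 and 6.66 in gPS replicates 1 to 5, 8.20 to 8.51 in the ESC_like arrays, 6.91 to 7.20 in GSC, 10.48 to 10.62 in MEF and 4.44 to 4.65 in ESC. At 7 or above were 5 of the 8 in gPS cells, 6 in ESC_like cells and none in ESC. In such bulk samples fewer cells of a type and less RNA per cell cannot be told apart.

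Across the 173 genes the median level was 7.05 in gPS cells, 7.74 in ESC_like cells, 5.41 in GSC, 6.55 in NSC, 6.59 in MEF and 8.82 in ESC. At 7 or above were 89 of them in gPS cells, 120 in ESC_like cells, 32 in GSC, 75 in NSC, 82 in MEF and, by the rule, all 173 in ESC. The restored genes had medians of 8.85 in gPS cells, 9.0 in ESC_like cells, 6.57 in GSC and 9.13 in ESC. The 173 genes were thus also the lower in GSC.

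**Figure D1:**
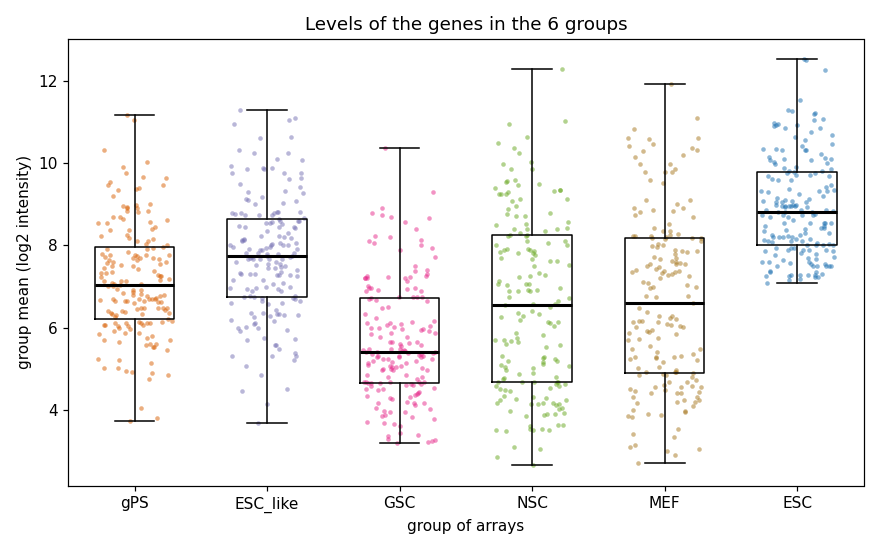
Group means of log2 intensity of the 173 genes (points) in 6 groups of arrays, with boxes over the quartiles, thick lines at the medians and whiskers to the lowest and highest gene. The median is 7.05 in gPS cells, 7.74 in ESC_like cells, 5.41 in GSC, 6.55 in NSC, 6.59 in MEF and 8.82 in ESC.

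The gPS minus ESC difference had a median of -1.52 and ran from -5.30 in Serpinb6c to -1.01 in Frrs1. For 46 genes it was -2 or lower. Over all measured genes 2.13% were at least 1 lower in gPS cells than in ESC and 2.39% at least 1 higher, and the rule fixes the members' count. In 167 of the 173, every gPS array lay below the lowest ESC array, and in the other 6 (Plaat3, Fam25c, Phlda2, Bcat1, Mras and Trps1) at least 1 gPS array reached the ESC range. The rule favours this count as well, since it chose genes with a gPS mean below ESC. The same share over all measured genes is not given here. Against GSC, 103 genes (59.5%) were at least 1 higher in gPS cells, where 9.12% of all measured genes were, and 69 were within 1 of the GSC mean. The remaining gene, Ly75, which encodes an endocytic receptor of dendritic cells, was lower in gPS cells than in GSC. On the scale from the GSC mean to the ESC mean, the gPS mean had covered a median of 45.7% of the distance, from -57.2% for Ly75 to 82.1% for Lrrc34 and Bcat1. The same median was 90.0% for the restored genes, which the rule itself sets apart.

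For 133 of the 173, the RefSeq table of promoters (GRCm38.p6, the bases around each annotated start) held an entry. The 3 printed here belong to Serpinb6c, which had the lowest gPS minus ESC difference, to Zfp42, the best-known marker of ESC among the genes, and to Trpm1, a target of the pigment cell factor Mitf that is itself among the genes. The Serpinb6c promoter lies at chr13:33905142-33905441 on the minus strand, that of Zfp42 at chr8:43306960-43307259 on the minus strand, and this start of Trpm1, 1 of 2 in the table, at chr7:64153585-64153884 on the plus strand. Capitals mark CATGTG, the core of sites bound by Mitf-type factors, on either strand in Serpinb6c (where a match on each strand overlaps the other) and Trpm1. In Zfp42 they mark ATTTGCAT, the octamer bound by POU factors such as Oct4.
Serpinb6c: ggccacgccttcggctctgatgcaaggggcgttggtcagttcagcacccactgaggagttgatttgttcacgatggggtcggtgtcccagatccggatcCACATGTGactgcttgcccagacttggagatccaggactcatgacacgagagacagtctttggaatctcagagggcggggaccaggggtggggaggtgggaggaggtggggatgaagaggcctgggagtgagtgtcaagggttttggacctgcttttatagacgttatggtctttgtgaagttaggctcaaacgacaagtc
Zfp42: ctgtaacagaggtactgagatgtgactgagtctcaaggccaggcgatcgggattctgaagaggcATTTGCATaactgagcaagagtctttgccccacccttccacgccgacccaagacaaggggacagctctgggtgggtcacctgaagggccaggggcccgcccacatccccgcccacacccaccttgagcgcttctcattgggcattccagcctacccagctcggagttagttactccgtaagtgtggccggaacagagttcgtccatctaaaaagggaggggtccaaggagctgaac
Trpm1: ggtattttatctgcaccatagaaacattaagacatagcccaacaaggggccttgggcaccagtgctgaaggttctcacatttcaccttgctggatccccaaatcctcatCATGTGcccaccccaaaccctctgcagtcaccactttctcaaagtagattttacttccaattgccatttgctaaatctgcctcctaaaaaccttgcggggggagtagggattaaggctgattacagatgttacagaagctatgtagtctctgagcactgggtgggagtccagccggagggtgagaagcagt
A match of letters in Serpinb6c, Zfp42 or Trpm1 is a description, not a site or a cause.

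Over the promoters, CATGTG on either strand occurred in 28 of the 133 genes (21.1%), in 11.2% of the 563 restored genes with an entry and in 12% of 14368 measured genes with one. ATTTGCAT on either strand occurred in 6 genes (4.51%), against 1.78% of the restored genes and 1.68% of all. The E-box CACGTG occurred in 12.8% of the 133, 12.3% of the restored genes and 10.3% of all. TATAAA, searched on the coding strand, occurred in 11.3% of the 133, 7.10% of the restored genes and 7.46% of all. TCAAGGTCA, a site of the nuclear receptor Esrrb, occurred on either strand in 0 of the 133, 0.710% of the restored genes and 0.404% of all. The promoters also held fewer CpG dinucleotides for their base composition: the median ratio of observed to expected CpG was 0.61 in the 133 genes, 0.72 in the restored genes and 0.70 in all. A ratio of 0.6 or more, as in a CpG island, was met by 52.6% of the genes, 70.5% of the restored genes and 60.4% of all. It was met by 44.4% of the 81 genes at least 1 above GSC in gPS cells, and by 64.7% of the 51 within 1 of GSC. For a gene with several starts, a motif was counted if any start held it, and the highest CpG ratio was taken. The number of starts per gene was not compared between the sets. These shares are descriptions with no test, since the members were chosen on expression.

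Zfp42, which encodes Rex1, a zinc finger protein and marker of naive ESC, led the pluripotency regulators. Its level was 9.22, 9.71, 9.36, 9.43 and 9.17 in the gPS arrays, 9.88, 9.86 and 9.93 in the ESC_like arrays, 7.23, 7.35 and 7.14 in GSC, and 12.29, 12.26 and 12.27 in ESC. It was thus expressed in both kinds of testis-derived pluripotent cells and 7.44-fold lower in gPS cells than in ESC (gPS minus ESC -2.89), with no overlap of arrays. In NSC and MEF it averaged 3.10 and 3.01, at background. ESC_like cells were higher than NSC by 6.79 ± 0.13 (SE, limma adjusted p = 2.77e-19) and higher than MEF by 6.88 ± 0.13 (SE, limma adjusted p = 2.82e-19).

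Tcl1, a co-activator of Akt, showed less of a gap and little distance from GSC. It stood at 8.72, 9.30, 9.33, 9.37 and 9.30 in gPS cells, 9.65, 9.41 and 9.45 in ESC_like cells, 8.64, 8.70 and 8.65 in GSC, and 11.03, 10.92 and 10.83 in ESC. Nr5a2, a nuclear receptor that binds the Pou5f1 locus, had group means of 8.37 in gPS cells, 9.07 in ESC_like cells, 8.06 in GSC and 10.09 in ESC. For Tcl1 and Nr5a2 the gPS cells kept close to the GSC they came from, 0.54 and 0.30 above them. Nr5a2 carries a limit: of its other probe sets with an ESC mean of at least 7, 1 gave a gPS minus ESC difference of -0.33 and another 0.18, so its gap depended on the probe set.

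Otx2, a homeodomain factor of the epiblast and anterior neural plate, was nearly off in GSC (3.15, 3.40 and 3.34). In gPS cells it stood at 4.99, 6.67, 6.41, 6.56 and 7.03, in ESC_like cells at 7.12, 7.37 and 6.77, and in ESC at 8.03, 8.08 and 7.93. All gPS arrays were above all GSC arrays and below all ESC arrays. It was called higher in ESC_like cells than in NSC (2.82 ± 0.32, SE, limma adjusted p = 1.80e-07) and MEF (3.74 ± 0.32, SE, limma adjusted p = 3.44e-09). Eprn (Ephemeron), a long noncoding RNA of ESC, averaged 8.93 in gPS cells, 9.41 in ESC_like cells and 10.11 in ESC. Lncenc1, another such RNA, averaged 7.28 in gPS cells, 5.49 in ESC_like cells and 8.55 in ESC, and so was the lower in ESC_like cells. Lncenc1 in gPS cells rested on replicates 2 to 5, at 7.80, 7.67, 7.80 and 7.54, since replicate 1 was at 5.58.

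Khdc3, which encodes Filia of the maternal subcortical complex, ran the other way, with 7.96, 6.08, 6.50, 6.59 and 7.06 in gPS cells, 8.55, 8.49 and 8.58 in ESC_like cells, and 8.27, 8.07 and 7.97 in ESC. The ESC_like arrays were thus all above the ESC arrays, and the gPS arrays all below them. Sall1, a Spalt-family zinc finger factor, was also high in NSC (8.40) and at background in MEF (3.54). It was higher in ESC_like cells than in MEF by 5.28 ± 0.26 (SE, limma adjusted p = 7.13e-13), and its difference from NSC, 0.42 ± 0.26 (SE, limma adjusted p = 0.203), was not called. Lrrc34, a leucine-rich repeat protein of germ and pluripotent cells, covered most of its way: it averaged 9.67 in gPS cells, 9.92 in ESC_like cells, 4.02 in GSC and 10.91 in ESC.

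The pluripotency list as a whole held 40 genes, of which 38 were measured and 4 were among the 173 (Zfp42, Nr5a2, Tcl1 and Otx2). Of the other 34, 3 were called higher in gPS cells than in ESC with limma: Klf4 at 1.45, Dppa3 at 2.84 and Utf1 at 1.11. The other 31 were not called, and the median over the 34 was -0.14. The fit called 2.13% of all genes lower and 2.36% higher in gPS cells, and 1.19% and 2.39% of those outside the 173. In all, 12 genes with roles in pluripotency or early embryos were among the 173, with a median gPS minus ESC of -1.5 and a median ESC_like minus ESC of -1.10.

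**Figure D2:**
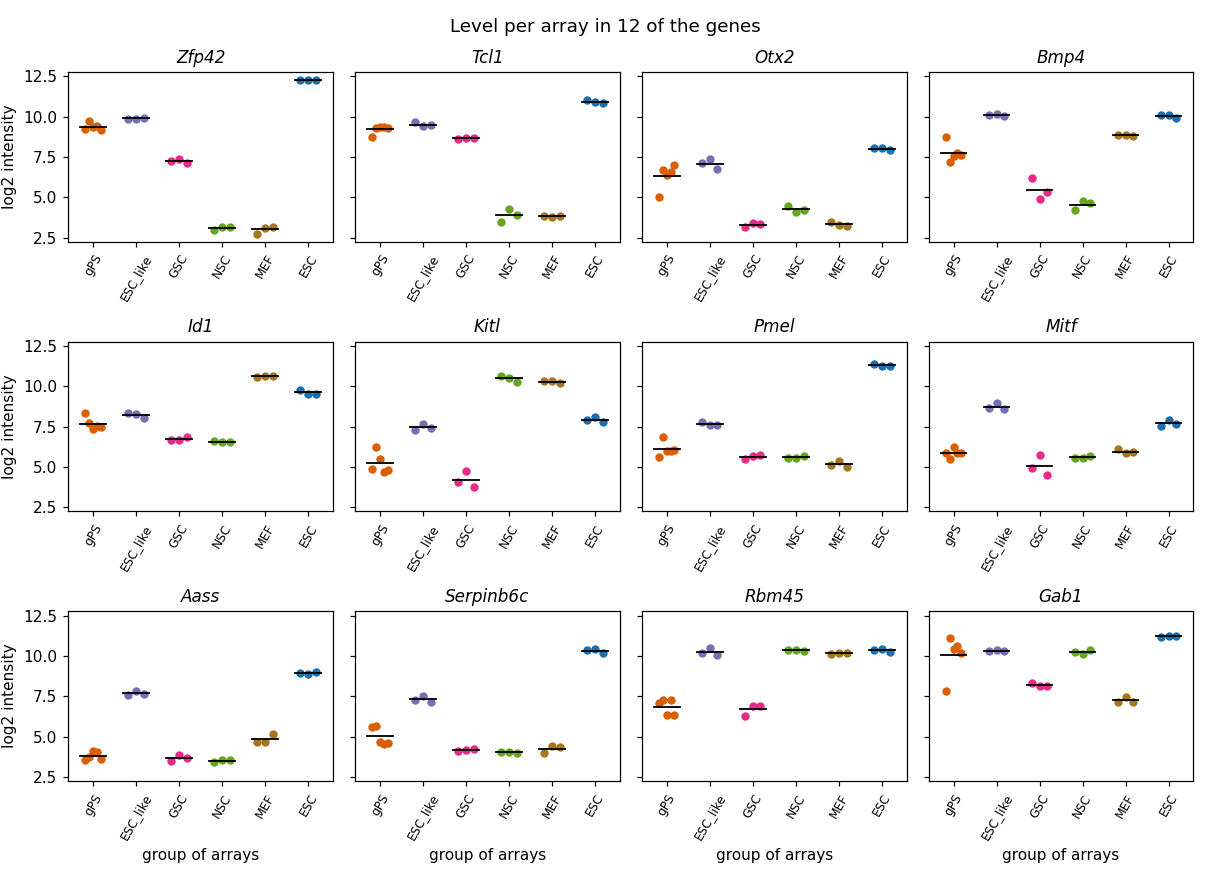
Log2 intensity on each array (points, with the group mean as a line) for 12 of the genes in 6 groups. Zfp42 and Pmel lie below ESC in both gPS and ESC_like cells, Bmp4 and Mitf in gPS cells and not in ESC_like cells, Rbm45 in gPS cells and GSC, and Gab1 is low in gPS replicate 1, at 7.82.

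Ligands came first among the signalling genes. Bmp4, a bone morphogenetic protein that holds ESC in self-renewal together with LIF, stood at 8.75, 7.18, 7.53, 7.72 and 7.63 in gPS cells, 10.11, 10.17 and 10.02 in ESC_like cells, 6.18, 4.89 and 5.36 in GSC, and 10.09, 10.08 and 9.94 in ESC. ESC_like cells therefore matched ESC to within 0.07, while every gPS array was lower than every ESC array, with a gPS minus ESC difference of -2.27 (4.83-fold). NSC averaged 4.53 and MEF 8.83, and ESC_like cells were higher than both, by 5.57 ± 0.30 (SE, limma adjusted p = 1.68e-12) and 1.27 ± 0.30 (SE, limma adjusted p = 0.00125). Id1 and Id2, BMP targets that block bHLH factors, were lower in both kinds of testis-derived cells than in ESC. Id1 had 8.33, 7.75, 7.34, 7.56 and 7.45 in gPS cells, 8.37, 8.30 and 8.02 in ESC_like cells, and 9.78, 9.51 and 9.55 in ESC. Id2 averaged 8.70 in gPS cells, 8.53 in ESC_like cells, 4.34 in GSC and 10.31 in ESC. In ESC_like cells Bmp4 was at the ESC level, and Id1 was -1.38 and Id2 -1.79 relative to ESC. A link between these levels was not tested.

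The list of BMP pathway genes held 21 others, of which Id4 was called lower in gPS cells than in ESC, at -1.69, the BMP antagonist Grem1 higher, at 2.57, and 19 were not called. Fibroblast markers were also higher in gPS cells than in ESC (6.97 against 4.53), and the part of feeder RNA in the Grem1 level was not tested. Id1 averaged 6.58 in NSC and 10.61 in MEF, and NSC were lower than MEF (-4.03 ± 0.18, SE, limma adjusted p = 5.46e-14). Id2 was lower in ESC_like cells than in NSC (-2.12 ± 0.31, SE, limma adjusted p = 7.74e-06) and than in MEF (-1.85 ± 0.31, SE, limma adjusted p = 4.41e-05). Both Id2 calls were lost, at -0.32 and -0.46, when probe sets whose names end in x_at, s_at or a_at, which can bind several transcripts, were left out. That moved Id2 to a probe set at background in every group, from 3.24 in GSC to 4.76 in ESC, while its other bright probe set had 7.57 in ESC_like cells, 9.83 in NSC and 9.06 in MEF.

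Kitl, the ligand of the Kit receptor that spermatogonia carry, stood at 4.87, 6.25, 5.50, 4.69 and 4.84 in gPS cells, 7.31, 7.67 and 7.43 in ESC_like cells, 4.06, 4.73 and 3.76 in GSC, and 7.92, 8.11 and 7.79 in ESC. It was 6.55-fold lower in gPS cells than in ESC. The highest of the gPS values was in replicate 2, the gPS array with the most fibroblast marker signal, and MEF held Kitl at 10.29; the part of feeder RNA in this value was not tested. ESC_like cells were lower than NSC (-3.02 ± 0.29, SE, limma adjusted p = 2.19e-08) and MEF (-2.82 ± 0.29, SE, limma adjusted p = 7.51e-08). Spry4, a feedback inhibitor of FGF signalling, averaged 7.77 in gPS cells, 8.46 in ESC_like cells, 5.30 in GSC and 9.46 in ESC. The size of its gap depended on the probe set: the others had gPS minus ESC differences of -1.42, -0.30 and -0.32, at ESC means of 9.24, 6.86 and 6.43. The FGF and Kit list held 21 measured genes, and the 19 that are not among the 173 were not called in gPS cells against ESC.

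A receptor and a transcription factor of the Hedgehog pathway were both lower than in ESC. Ptch1, the Hedgehog receptor, averaged 9.35 ± 0.45 (SD, n = 5) in gPS cells, 9.17 ± 0.19 (SD, n = 3) in ESC_like cells and 11.19 ± 0.15 (SD, n = 3) in ESC. Gli1, the pathway's transcription factor and, like Ptch1, its target, averaged 6.07 ± 0.48 (SD, n = 5) in gPS cells, 5.31 ± 0.12 (SD, n = 3) in ESC_like cells and 7.86 ± 0.16 (SD, n = 3) in ESC. In both genes the gPS and ESC_like arrays lay below all ESC arrays. Among receptors, Ngfr of neurotrophins, Nrp2 of semaphorins and Epha4 of ephrins were within 1 of ESC in ESC_like cells (-0.66, -0.62 and -0.09) and lower in gPS cells (-1.99, -1.97 and -1.24). The 21 signalling genes together had a median gPS minus ESC of -1.75 and a median ESC_like minus ESC of -0.78. Of them, 7 were at least 1 below ESC in ESC_like cells, beside 54.3% of the 173 and 2.12% of all genes.

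Gab1, a docking protein of receptor tyrosine kinases, and Dusp4, a phosphatase that inactivates MAP kinases, owed their place to 1 array. Gab1 stood at 7.82, 11.11, 10.44, 10.62 and 10.21 in gPS cells and 11.14, 11.25 and 11.24 in ESC. Without gPS replicate 1 its gPS minus ESC difference was -0.61 in place of -1.17, and that of Dusp4 -0.83 in place of -1.28. In all, 13 genes would leave the set without that array, among them Lncenc1 (-0.85), Diaph2 (-0.89) and Zmynd11 (-0.94). Replicate 1 was the lowest gPS array for 80 of the 173 genes and the highest for 43, and across all probe sets it had the lowest mean correlation with its group of the 20 arrays, 0.979.

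Imprinted genes gave 2 of the 173, and Xist, the noncoding RNA of X inactivation, a further 1. Rian, a maternally expressed noncoding RNA of the Dlk1-Meg3 locus, stood at 4.87, 5.39, 5.06, 4.97 and 4.87 in gPS cells, 6.72, 7.45 and 6.54 in ESC_like cells, 5.07, 4.68 and 5.20 in GSC, and 7.63, 7.89 and 7.94 in ESC. The gPS arrays were at the GSC level, 6.91-fold below ESC, and the ESC_like arrays lay between. Meg3, of the same locus and no member, averaged 7.61 in gPS cells, 8.09 in GSC and 8.88 in ESC, and it was called lower in gPS cells than in ESC (-1.27, limma adjusted p = 3.80e-03). MEF held Rian at 9.79, and ESC_like cells were lower than MEF (-2.88 ± 0.21, SE, limma adjusted p = 4.81e-10).

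Phlda2, a maternally expressed gene that restrains placental growth, varied among gPS arrays, at 9.76, 7.99, 6.93, 7.04 and 6.77, around the ESC values of 8.92, 8.83 and 9.08. Its replicate 1 was above every ESC array, and the group mean is therefore no level of any one array. Of 19 other maternally expressed imprinted genes, Meg3 was the 1 called lower in gPS cells than in ESC, Grb10 was called higher, at 1.84, and 17 were not called. Xist averaged 6.49 ± 0.53 (SD, n = 5) in gPS cells, 8.05 ± 0.30 (SD, n = 3) in ESC_like cells, 5.96 ± 0.29 (SD, n = 3) in GSC, 8.18 ± 0.22 (SD, n = 3) in MEF and 8.55 ± 0.19 (SD, n = 3) in ESC. The other probe sets of Xist had 3.52 and 3.54 in gPS cells and 3.37 and 3.61 in ESC, all at background, so its gap rested on 1 probe set. The first of them had 5.38 in ESC_like cells and 6.61 in MEF. Of 4 measured Y-linked genes on a separate list with Xist, Eif2s3y and Uty were called lower in gPS cells than in ESC and 2 were not called. Eif2s3y averaged 5.13 in gPS cells and 10.08 in ESC, and Uty 5.11 in gPS cells and 7.59 in ESC. The GSC, from which the gPS cells were grown, and the ESC_like cells came from testes. The labels used here do not give the sex of the ESC, NSC or MEF. The part of sex in the level of Xist was not tested.

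Pigment cell genes gave 3 of the 173. Pmel, the amyloid scaffold of melanosomes, stood at 5.62, 6.87, 5.97, 6.01 and 6.07 in gPS cells, 7.78, 7.63 and 7.60 in ESC_like cells, 5.47, 5.71 and 5.75 in GSC, and 11.37, 11.24 and 11.25 in ESC. The gPS cells were 36.2-fold below ESC and had covered 8.20% of the distance from GSC. ESC_like cells were far below ESC too, yet higher than NSC by 2.07 ± 0.20 (SE, limma adjusted p = 2.19e-08) and than MEF by 2.50 ± 0.20 (SE, limma adjusted p = 1.62e-09). Mitf, the transcription factor that directs melanocytes and activates Pmel and Trpm1 in them, did not go with Pmel across the groups. It stood at 5.84, 5.50, 6.25, 5.84 and 5.88 in gPS cells, 8.66, 8.94 and 8.58 in ESC_like cells, and 7.53, 7.90 and 7.65 in ESC. Mitf was the 1 gene of the 173 at least 1 higher in ESC_like cells than in ESC, at 1.04, while Pmel there was 3.62 below ESC (ESC_like minus ESC -3.62).

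Trpm1, a channel of melanocytes and retinal bipolar cells whose promoter holds CATGTG, averaged 7.26 in gPS cells, 6.74 in ESC_like cells, 5.04 in GSC and 8.82 in ESC. Its gap rested on a single probe set, since the others had 3.13 to 4.38 in gPS cells and 3.03 to 4.37 in ESC, all at background. Of the 11 other measured melanosome genes, 10 were not called in gPS cells against ESC. The 1 called lower was Gpr143, a melanosome receptor, at 4.50 in gPS cells and 6.79 in ESC.

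Among metabolic genes, Aass, which starts the breakdown of lysine, lay farthest below ESC in gPS cells. It stood at 3.56, 3.74, 4.11, 4.03 and 3.60 in gPS cells, 7.61, 7.80 and 7.62 in ESC_like cells, 3.49, 3.86 and 3.69 in GSC, and 8.93, 8.91 and 9.03 in ESC. The gPS arrays overlapped the GSC arrays at a level that may be background, 35.4-fold below ESC. ESC_like cells were higher than NSC by 4.18 ± 0.15 (SE, limma adjusted p = 4.48e-15) and than MEF by 2.83 ± 0.15 (SE, limma adjusted p = 4.22e-12). Dhtkd1, a later enzyme of lysine and tryptophan breakdown, was also near GSC in gPS cells, with means of 7.46 in gPS cells, 7.78 in ESC_like cells, 7.26 in GSC and 9.09 in ESC. Pipox, which oxidises pipecolate and sarcosine, averaged 7.78 in gPS cells, 7.41 in ESC_like cells, 5.13 in GSC and 8.82 in ESC.

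Dpys, the dihydropyrimidinase of pyrimidine breakdown, was at background outside ESC. Its gPS arrays stood at 3.62, 3.62, 4.75, 4.25 and 4.00, its ESC_like arrays at 3.71, 3.69 and 3.65, and its ESC arrays at 8.69, 8.91 and 8.50. The means of GSC, NSC and MEF were 3.36, 3.48 and 3.41, and neither ESC_like minus NSC (0.20 ± 0.21, SE, limma adjusted p = 0.475) nor ESC_like minus MEF (0.28 ± 0.21, SE, limma adjusted p = 0.323) was called. The gap of Dpys rested on a single probe set. Its other probe sets had 3.50 and 3.39 in gPS cells and 3.37 and 3.63 in ESC, all at background.

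Other enzymes were near the ESC level in ESC_like cells. Pfkp, a phosphofructokinase of glycolysis, stood at 9.57, 9.67, 9.86, 9.92 and 9.80 in gPS cells, 11.04, 10.88 and 10.95 in ESC_like cells, and between 10.86 and 11.08 in ESC. Its ESC_like arrays overlapped the ESC arrays and its gPS arrays were all lower. Bcat1, a branched-chain aminotransferase, ranged in gPS cells over 10.26, 9.78, 7.98, 7.97 and 9.07, against 10.31, 10.21 and 10.15 in ESC, and averaged 10.62 in ESC_like cells and 3.45 in GSC. Replicates 1 and 2 of the gPS cells were thus near ESC, and replicates 3 and 4 more than 2 below. The 20 metabolic genes had a median gPS minus ESC of -1.40 and a median ESC_like minus ESC of -1.25. Of them, 12 were at least 1 lower in ESC_like cells than in ESC, near the share of 54.3% over the 173. The amino acid and one-carbon list held Aass, Bcat1 and 25 other measured genes, of which Cbs was called higher in gPS cells than in ESC, at 1.12, and 24 were not called.

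Protease inhibitors and proteases lay far below ESC. Serpinb6c, a serine protease inhibitor of the clade B cluster, stood at 5.58, 5.68, 4.69, 4.54 and 4.63 in gPS cells, 7.27, 7.53 and 7.12 in ESC_like cells, 4.13, 4.18 and 4.26 in GSC, and 10.35, 10.45 and 10.17 in ESC. At 39.4-fold it was the lowest of all 18193 genes in gPS cells relative to ESC. Serpinb9b, of the same cluster on chromosome 13, went another way: it averaged 5.84 in gPS cells, 7.80 in ESC_like cells and 7.26 in ESC, and 9.58 in MEF. Spink10 and Spink1, of the Kazal-type inhibitor family on chromosome 18, averaged 3.73 and 6.64 in gPS cells, 4.14 and 6.28 in ESC_like cells, and 7.49 and 8.97 in ESC. Spink10 in gPS cells was at its GSC level of 3.79, which may be background.

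Mme, the membrane metallopeptidase neprilysin, averaged 7.14 ± 0.34 (SD, n = 5) in gPS cells, 8.46 ± 0.07 (SD, n = 3) in ESC_like cells and 9.76 ± 0.03 (SD, n = 3) in ESC, and ESC_like cells were higher than NSC by 4.54 ± 0.21 (SE, limma adjusted p = 1.83e-13). Tfpi, the inhibitor of the tissue factor pathway, was above ESC in ESC_like cells, at 11.03, 11.21 and 11.07 against 10.37, 10.52 and 10.51 in ESC. In gPS cells it stood at 7.09, 8.92, 9.66, 9.53 and 9.75. ESC_like cells had more Tfpi than MEF by 1.13 ± 0.43 (SE, limma adjusted p = 0.0383), a call that turned round, to -0.54, when the gene's probe sets were averaged. Of the 9 genes of this group, 7 were at least 1 below ESC in ESC_like cells, beside 54.3% of the 173.

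Transporters had the lowest medians of the role groups in gPS cells. The 8 of them had a median gPS minus ESC of -2.48, and 7 were at least 1 below ESC in ESC_like cells, beside 54.3% of the 173. Abcb1a and Abcb1b, both P-glycoprotein efflux pumps, averaged 6.80 and 6.47 in gPS cells, 6.74 and 8.0 in ESC_like cells, and 9.33 and 9.31 in ESC. As closely related genes they may share probe signal, which was not tested. Fxyd6, a regulator of the sodium pump, stood at 6.25, 7.11, 7.60, 7.51 and 8.17 in gPS cells, 6.50, 6.22 and 6.38 in ESC_like cells, and 10.43, 10.30 and 10.33 in ESC. In this gene ESC_like cells were the farther from ESC, at -3.99 against -3.02 in gPS cells.

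Of 10 RNA-binding and chromatin genes, 8 were within 1 of GSC in gPS cells, as were 69 of the 173 and 79.9% of all measured genes. Rbm45, an RNA-binding protein, stood at 7.07, 7.28, 6.33, 7.26 and 6.37 in gPS cells, 10.20, 10.49 and 10.08 in ESC_like cells, 6.31, 6.89 and 6.90 in GSC, and 10.35, 10.41 and 10.27 in ESC. NSC (10.36) and MEF (10.16) were at the ESC level too, so gPS cells and GSC were the 2 groups that stood apart, at 11.2-fold below ESC in gPS cells. Patl2, an RNA-binding protein of oocytes, was the reverse, with means of 7.64 in gPS cells, 7.44 in ESC_like cells, 7.01 in GSC, 5.24 in NSC, 5.03 in MEF and 11.07 in ESC. Mbd4, a glycosylase that removes thymine from mismatched CpG sites, averaged 6.77 in gPS cells, 8.18 in ESC_like cells and 8.25 in ESC. The 12 other measured genes of DNA methylation were not called in gPS cells against ESC.

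Lgals3, galectin-3, a lectin of the cell surface and matrix, averaged 11.04 in gPS cells, 11.06 in ESC_like cells, 8.58 in GSC, 3.86 in NSC, 11.93 in MEF and between 12.47 and 12.55 on the ESC arrays. Cap1, an actin-binding protein, split the gPS arrays, at 9.22, 8.99, 6.82, 6.82 and 6.49, against 9.88, 9.66 and 9.78 in ESC. The gPS arrays in replicates 1 and 2 were close to ESC and those in replicates 3 to 5 close to GSC, which had 5.98, 7.05 and 6.96. St8sia1, which makes the ganglioside GD3, averaged 4.75 in gPS cells, 6.33 in ESC_like cells, 5.23 in GSC, 9.32 in NSC and 7.51 in ESC. St8sia1 was thus lower in gPS cells than in GSC, as was the membrane protein gene Tmem64, at 8.70 in gPS cells, 9.30 in GSC and 10.86 in ESC.

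**Figure D3:**
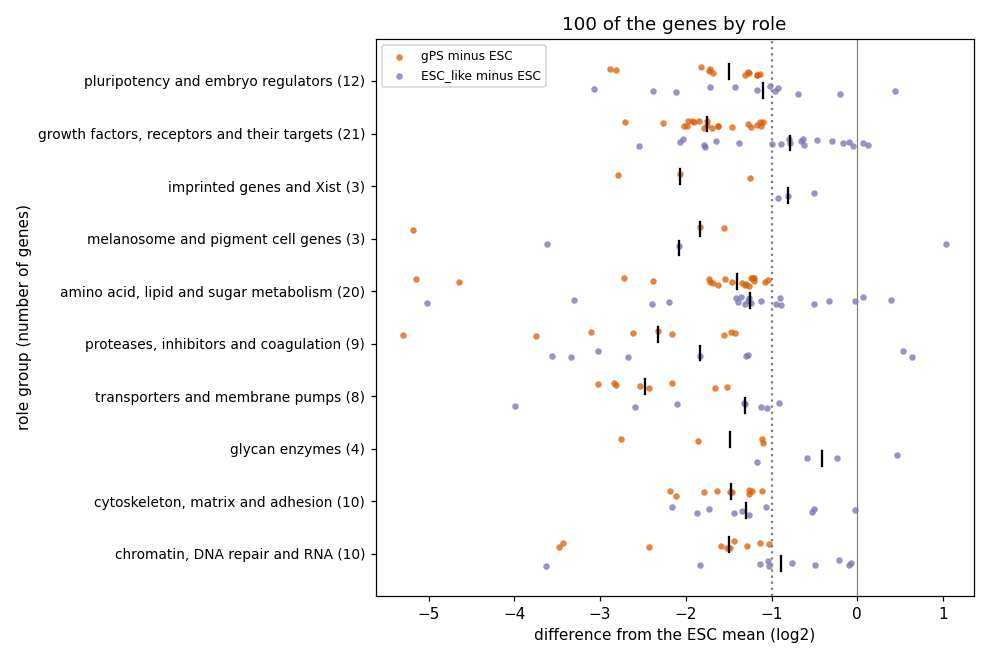
Difference from the ESC mean (log2) in gPS cells (upper points of each row) and ESC_like cells (lower points) for 100 of the genes in 10 role groups, with black lines at the medians and a dotted line at -1. The transporter group has the lowest median in gPS cells, -2.48, and the signalling genes lie nearer to ESC in ESC_like cells (-0.78) than in gPS cells (-1.75).

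ESC_like cells, the other testis-derived pluripotent cells, shared part of these gaps. Against ESC, 94 of the 173 genes (54.3%) were at least 1 lower in ESC_like cells, where 8.19% of the restored genes and 2.12% of all genes were. A further 78 were within 1, and Mitf was higher. The median ESC_like minus ESC was -1.06, and it ran from -5.22 in Kbtbd11 to 1.04 in Mitf. The ESC arrays chose the genes and also enter this difference, so the shares are descriptions. Between gPS cells and ESC_like cells, 52 genes (30.1%) were at least 1 lower in gPS cells, against 3.82% of the restored genes and 3.74% of all genes. The rule chose genes that were low in gPS cells, so it favours this count, which is a description. A further 117 genes were within 1 and 4 at least 1 higher in gPS cells, with a median of -0.48. Prune2 was the farthest of the 4, with 8.83 in gPS cells and 5.99 in ESC_like cells, against 10.92 in ESC. That order rested on 1 probe set of Prune2: another had 5.84 in gPS cells, 7.56 in ESC_like cells and 7.59 in ESC, a dimmer one had 4.24 in gPS cells, 5.42 in ESC_like cells and 5.58 in ESC, and the last 5.80 in gPS cells, 5.63 in ESC_like cells and 5.83 in ESC. Kbtbd11, a Kelch and BTB domain protein, averaged 5.71 in gPS cells, 4.50 in ESC_like cells, 8.89 in NSC and 9.72 in ESC. These levels rested on a single probe set of Kbtbd11, since the others had 3.24 to 4.42 in gPS cells and 3.28 to 4.54 in ESC, all at background.

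The genes within 1 of ESC or higher in ESC_like cells were also higher in MEF, and those within 1 were higher in NSC as well. Those 79 had a median MEF level of 7.56, against 5.60 for the 94 that were lower. In NSC the 78 genes within 1 had a median of 7.26, against 5.68 for the 94, so the contrast was not particular to MEF. MEF were above ESC_like cells in 26 of the 79, and at least 1 below them in 35 of the 79, among which were Bmp4, Mitf, Khdc3, Pfkp and Mbd4. Since the ESC_like arrays carried more fibroblast marker signal than the ESC arrays, these values are given beside the difference, and the part of feeder RNA in it was not tested.

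**Figure D4:**
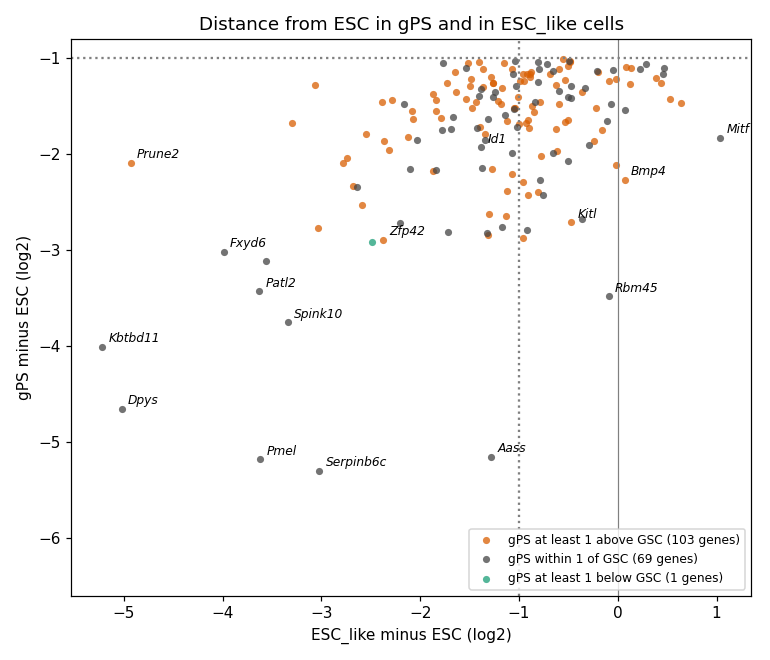
Difference from the ESC mean (log2) in ESC_like cells (horizontal) and gPS cells (vertical) for the 173 genes, coloured by the gPS level relative to GSC, with dotted lines at -1. Serpinb6c, Pmel and Dpys are low in both, whereas Rbm45, Bmp4 and Mitf lie at -0.09, 0.07 and 1.04 in ESC_like cells.

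ESC_like, NSC and MEF levels allowed tests that the rule had not used. ESC_like cells were called higher than NSC for 89 of the 173 genes (51.4%), against 11.3% of all genes, and lower for 25 (14.5%), against 9.69%. They were called higher than MEF for 85 (49.1%), against 9.7% of all genes, and lower for 24 (13.9%), against 9.26%. The calls were made with limma at a Benjamini-Hochberg adjusted p under 0.05 and a difference of at least 1. Of the restored genes, which are ESC genes as well, 44.5% were called higher in ESC_like cells than in NSC and 40.7% higher than in MEF. Called higher in ESC_like cells than in both NSC and MEF were 66 of the 173 (38.2%), against 31.1% of the restored genes and 6.06% of all genes. Called lower than in both were 8 (4.62%), against 2.86% of the restored genes and 3.2% of all genes. The median difference was 1.05 from NSC and 0.93 from MEF, where over all genes it was -0.02 and -0.04.

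NSC and MEF differed from each other for 78 of the genes. NSC were called higher than MEF for 36 (20.8%), against 8.13% of all genes, and lower for 42 (24.3%), against 8.84%. Among the restored genes the shares were 13.8% and 20.1%. Sall1 (4.86 ± 0.26, SE, limma adjusted p = 1.52e-12), St8sia1 (4.86 ± 0.25, SE, limma adjusted p = 7.44e-13) and the orphan receptor gene Gprc5b (3.74 ± 0.27, SE, limma adjusted p = 2.30e-10) were higher in NSC. Laptm4b, a lysosomal membrane protein and with 12.28 the highest of the genes in NSC, was higher there than in MEF by 1.87. Lgals3 (-8.07 ± 0.17, SE, limma adjusted p = 1.42e-18), the urokinase receptor gene Plaur (-5.71 ± 0.14, SE, limma adjusted p = 1.13e-17), Rian (-5.65 ± 0.21, SE, limma adjusted p = 5.95e-15) and Serpinb9b (-4.49 ± 0.15, SE, limma adjusted p = 9.58e-16) were lower in NSC.

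The genes could be sorted by their levels across the 6 groups. The ESC arrays chose the genes and enter every difference from ESC, so the counts are descriptions. At least 1 below ESC in NSC were 71.7% of the 173, 50.8% of the restored genes and 10.1% of all genes. In MEF the shares were 70.5%, 50.3% and 10.9%. The shares of the patterns below over all genes are not given here. In 68 genes ESC_like cells, NSC and MEF were all at least 1 below ESC, among them Zfp42, Tcl1, Nr5a2, Ptch1, Gli1, Pmel, Trpm1, Aass, Dpys, Patl2, Serpinb6c and Spink1. In 36 NSC and MEF were at least 1 lower and ESC_like cells were not, among them Bmp4, Otx2, Mitf, Khdc3, Mbd4, Sall1, Pfkp, Phlda2 and Ngfr. In 24 genes none of ESC_like cells, NSC and MEF was 1 below ESC, so that GSC and gPS cells alone were lower by that measure. These were Acyp2, B3gnt5, Cap1, Chm, Ddit4l, Dusp4, Eda2r, Glrx, Kansl1l, Kitl, Manea, Mras, Pid1, Plaat3, Rbm45, Scrn1, Spcs3, Tmed5, Tmem87a, Trps1, Tstd3, Vcan, Vegfc and Zmynd11. In 10 of the 24 the gPS mean was also within 1 of GSC, as in Rbm45 and Tmem87a, which averaged 5.69 in gPS cells, 8.02 in ESC_like cells, 5.43 in GSC, 8.43 in NSC, 8.04 in MEF and 8.38 in ESC. The remaining 45 genes had other patterns.

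**Figure D5:**
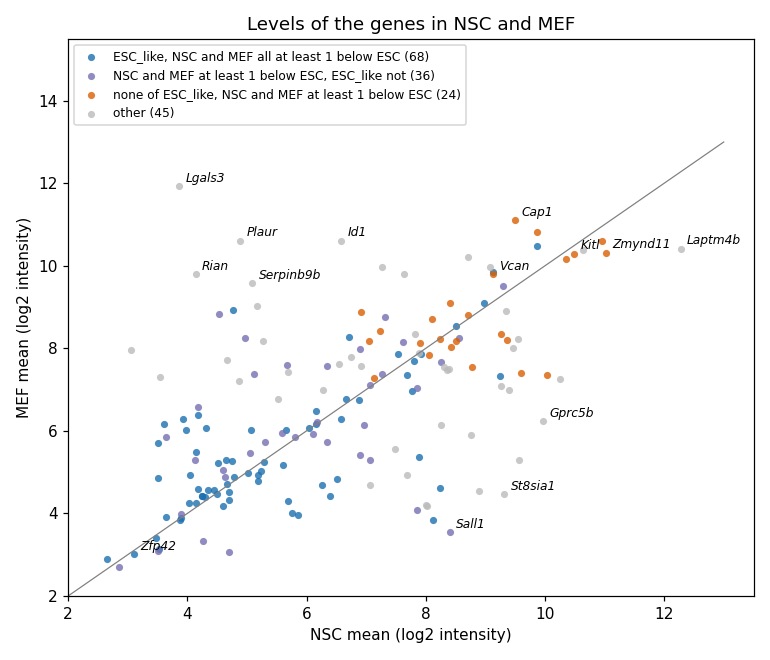
Mean log2 intensity in NSC (horizontal) and MEF (vertical) of the 173 genes, coloured by pattern, with the line of equality in grey. The 68 genes lower in ESC_like cells, NSC and MEF than in ESC lie mostly in the lower left, the 24 lower in GSC and gPS cells alone in the upper right, and Lgals3 and Sall1 lie far from the line.

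Several lists held few or none of the 173 genes. Of 15 measured Nodal and activin genes, 4 were called higher in gPS cells than in ESC, among them the inhibitor Lefty2 (9.44 in gPS cells and 7.63 in ESC), and 11 were not called. Of 22 Wnt genes, 5 were called higher, among them the feedback gene Axin2 (7.45 in gPS cells and 5.76 in ESC), and 17 were not called. Of 38 genes of epithelial junctions and adhesion, 5 were called higher, among them the claudin gene Cldn7 (9.05 in gPS cells and 6.57 in ESC), and 33 were not called. Of 28 meiotic and germ cell genes, 3 were called higher and 2 lower. The 2 were Sycp3 and Stag3, genes of the meiotic chromosome axis that were lower in ESC than in GSC. Among 27 interferon and MHC genes 3 were called higher, and among 38 glutathione and xenobiotic genes 4 higher and 1 lower. Of the Serpin list, the 11 genes other than Serpinb6c and Serpinb9b were not called. Of 11 Pramel- and Oosp-type genes beside Khdc3 and Tcl1, 2 were called lower, Pramel6 and Pramel7, whose ESC means were under 7, and 9 were not called.

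Chromosomes and probe sets were read as checks of what the genes share. Of the 173, 171 were placed on a chromosome. Of the candidate genes, those with an ESC mean of at least 7 and at least 1.5 above GSC, members made up 14 of 38 on chromosome 13 (36.8%) and 16 of 52 on chromosome 2 (30.8%), against 5 of 71 on chromosome 7 (7.04%) and 4 of 50 on chromosome 11 (8.0%), beside 19% over all. These shares are descriptions with no test. Of the genes, 102 had several probe sets, and 77 of their 221 other probe sets had an ESC mean of at least 7. The gPS minus ESC difference was below 0 in 76 of these 77 and -1 or lower in 49. That filter used the ESC arrays, which also chose the genes, so these counts are descriptions. It left out the dimmer probe sets, such as those of Dpys, Trpm1, Kbtbd11 and Xist at background in ESC. Some left-out probe sets showed little gap or the reverse. Their gPS minus ESC was -0.30 and -0.32 in Spry4, and 1.54 in Zfp945 and 0.85 in Smcr8, each at 4.75 in ESC. Others under 7 in ESC went with the gap, as in Kitl (-1.87) and St8sia1 (-2.15). In 7 genes (Scrn1, Sde2, Mmut, Nr5a2, Sall1, Chm and Zmynd11) another bright probe set lay within 0.5 of ESC or above, so their gaps depended on the probe set.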

How the data were processed

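RNA of 20 mouse samples was labelled with biotin and read on Affymetrix arrays. The authors deposited log2 intensities per probe set, made with RMA according to the processing notes of the submitters (no version given). Whether the 20 arrays were processed together is not given in the sources used here. No further scaling was applied. Of 45101 probe sets, 34945 had 1 gene symbol and 932 several. Those with 1 were reduced to 18193 genes, each taken from its probe set of highest mean on the 20 arrays.

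A model with 6 group means and no covariate was fitted to all arrays in R 4.3.3 with limma 3.58.1 (lmFit, eBayes). A call needed an adjusted p (Benjamini-Hochberg, all genes) under 0.05 and a log2 difference of at least 1. SE is limma's moderated standard error. ESC_like minus NSC, ESC_like minus MEF and NSC minus MEF were tested, since the rule used neither side of them. The gPS minus ESC fit is given only for list genes that are not among the 173. The members and the gene lists were chosen with earlier results of these data known. Genes named are list members, extremes of each difference or level, those next to the threshold and genes grouped by role. The fit was tested on simulated data. Alternatives were other scalings, probe set rules, filters, weights, thresholds, a block for the replicate number and each array left out. Tables came from Python 3.11.15 with pandas 2.3.3 (numpy 2.4.6), and figures from matplotlib 3.10.9. Promoters came from a RefSeq table (GRCm38.p6), which matched 133 members.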

Additional observations from a re-analysis of the deposited data

Results flagged for a closer look

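Among the 5 gPS arrays, 1 array stood apart from the other 4 in 18 of the 173 genes (10.4%), by the gap to its nearest neighbour relative to the range of the group. Chance flags about 1 in 20 such groups, but that holds for genes not chosen on these arrays. The rule used the gPS mean, which a low array brings down, and the share over all measured genes is not given here. The 10.4% is therefore a description. In 16 of the 18 the array was gPS replicate 1, the lowest in 12 and the highest in 4.

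Replicate 1 was the lowest of the gPS arrays in Patl2 (6.89), Eya1 (4.45), Lipo3 (5.05), Tcl1 (8.72), Fam13c (5.12), Tbc1d23 (6.50), Cds2 (10.27), Dusp4 (5.89), Lncenc1 (5.58), Gab1 (7.82), Cradd (6.84) and Diaph2 (6.93). It was the highest in Ak7 (7.91), Ngfr (7.42), Plaat3 (8.06) and Npl (8.53). Outside replicate 1, Xist was highest in gPS replicate 2 (7.41) and Eda2r lowest in gPS replicate 4 (6.05). Replicate 2 also had the most fibroblast marker signal of the gPS arrays, 8.0, and MEF held Xist at 8.18, and the part of feeder RNA in that value was not tested.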

How the results depend on the processing

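The rule gave 173 genes and 171 to 193 when each GSC, gPS or ESC array was left out in turn, with at least 160 of the 173 among them each time. It gave 179 after quantile normalization, 171 after centring each array, 191 with the probe set of the highest ESC mean, 161 without probe sets ending in x_at, s_at or a_at, 116 with probe sets averaged within genes, and 91 with a gPS gap of at least 1.5. Without gPS replicates 1 and 2 together, an alternative chosen after seeing the data, it gave 182, of which 158 were among the 173. In all 18 settings 53 genes were kept. The count at least 1 lower in ESC_like cells than in ESC, 94, was 48 at a difference of 1.5 and 89 to 101 with an array left out, and the count at least 1 higher in gPS cells than in GSC, 103, was 100 to 107 with an array left out. Calls were 87 to 89 for ESC_like over NSC, 80 to 84 for ESC_like over MEF, 35 to 36 for NSC over MEF and 40 to 42 for NSC under MEF with an array left out. Of the single-gene results, Tfpi, ESC_like minus MEF, was -0.54 with averaged probe sets in place of 1.13, and the cause was not tested.

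Replicate numbers are shared between groups, but same-numbered ESC_like, NSC and MEF arrays did not deviate together (r of -0.06 to 0.05), so the numbers do not pair them. With a replicate block the counts were 89, 85, 36 and 42, as without it. The 3 arrays of most groups limit the precision, and levels near 4.98 may be background, so a difference taken from there is of uncertain size.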
